A study of Homo sapiens with 3 samples.

Results

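Levels of 9 transcription factor genes were compared in an esophageal squamous carcinoma line after a hairpin RNA was delivered against an assembled transcript. The 9 genes are TP63, SOX2, TFAP2A, TFAP2C, GRHL2, GRHL3, OVOL1, ZNF750 and MYC. They were taken by name, as squamous lineage regulators and MYC, from the 19266 genes in the deposited tables, and all 9 were found and passed the filter on low counts. KYSE510 is an established human line from an esophageal squamous cell carcinoma, and its cells received lentivirus for 24 h and then 4 µM puromycin for 48 h in every group, per the labels. The control carried a scrambled hairpin, and the sh1 and sh2 samples carried hairpin 1 or hairpin 2 against the transcript TCONS_02256997. Each of the 3 groups is 1 sample with 3 numbered tables, and the labels do not say how the tables of a sample relate to each other. They are called libraries here and treated as n = 3 per group, so that every p-value measures only the spread between tables of 1 sample, which may be technical. The stated purpose of the series was to look for genes affected by the transcript, whose own level was not analysed here.

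Stratified squamous epithelium renews from a basal layer held by p63, the TP63 product, which works with SOX2 and the AP-2 factors TFAP2A and TFAP2C on many of the same enhancers in squamous cancers. The grainyhead factors GRHL2 and GRHL3 and the factors OVOL1 and ZNF750 act in epithelial junctions, exit from the basal state and terminal differentiation. MYC drives growth and ribosome production as a dimer with MAX, and TP63, SOX2 and MYC are often amplified in this cancer type.

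The 9 libraries held 14660821 to 16092417 expected counts each, with 15498 to 15807 genes above 0. The squamous label was checked against 8 squamous markers, none of which was at 0 in all libraries. In the control KRT17 averaged 4248 TPM (a level corrected for transcript length and library size), SFN 1619 and KRT5 1610, but PKP1 only 1.7. The summed squamous markers reached 7906 to 7971 TPM in the control, 4721 to 4814 TPM with sh1 and 6551 to 6716 TPM with sh2. KRT6A and PERP averaged 77.2 and 296 TPM with sh2, against 55.6 and 292 in the control, while the other squamous markers averaged lower with sh2. The 8 columnar markers summed to at most 2.67 TPM in any library, and CDX1, CDX2 and TFF3 were at 0 in all of them. The 7 fibroblast markers summed to 20.2 to 21.5 TPM in the control, 21.5 to 24.6 TPM with sh1 and 26.7 to 28.1 TPM with sh2, nearly all of it COL1A1, while COL1A2 averaged at most 0.02 TPM. The 4 endothelial markers summed to 6.39 to 7.25, 7.45 to 10.6 and 7.75 to 8.83 TPM in the same order, and the 5 leukocyte markers to 13.1 to 14, 15.8 to 18.2 and 14.2 to 16.6 TPM. Bulk RNA cannot tell apart fewer cells that make a transcript from less of it per cell.

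With sh1, 1 of the 9 factors rose (SOX2) and 6 fell (TP63, ZNF750, MYC, OVOL1, GRHL2 and TFAP2C), while GRHL3 and TFAP2A did not pass the test. With sh2, SOX2 again rose and 7 factors fell, GRHL3 now among them, and TFAP2A did not pass. These counts stand beside a wide change of the whole transcriptome: of 13580 genes tested, 34.7% were called higher and 34.6% lower with sh1, and 34.2% higher and 34.3% lower with sh2. A gene was called at an adjusted p below 0.05 in edgeR's quasi-likelihood test after Benjamini-Hochberg adjustment. The size of the change separates the factors more than the call does. Lower by at least 2-fold were 2 factors with sh1 (TP63 and ZNF750), against 5.21% of all genes, and 4 with sh2 (TP63, OVOL1, GRHL3 and ZNF750), against 4.61% of all genes. Higher by at least 2-fold was 1 factor with sh1 (SOX2), against 3.93% of all genes, and 0 with sh2, against 3.14% of all genes. The median log2 fold change over the 9 factors was -0.31 with sh1 and -0.96 with sh2, beside 0.01 and 0.00 over all genes. The 9 factors were chosen with earlier results of these data known, so these counts and medians are descriptions and no independent test. Both comparisons use the same control libraries, so a like direction in them is not 2 independent results.

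**Figure D1:**
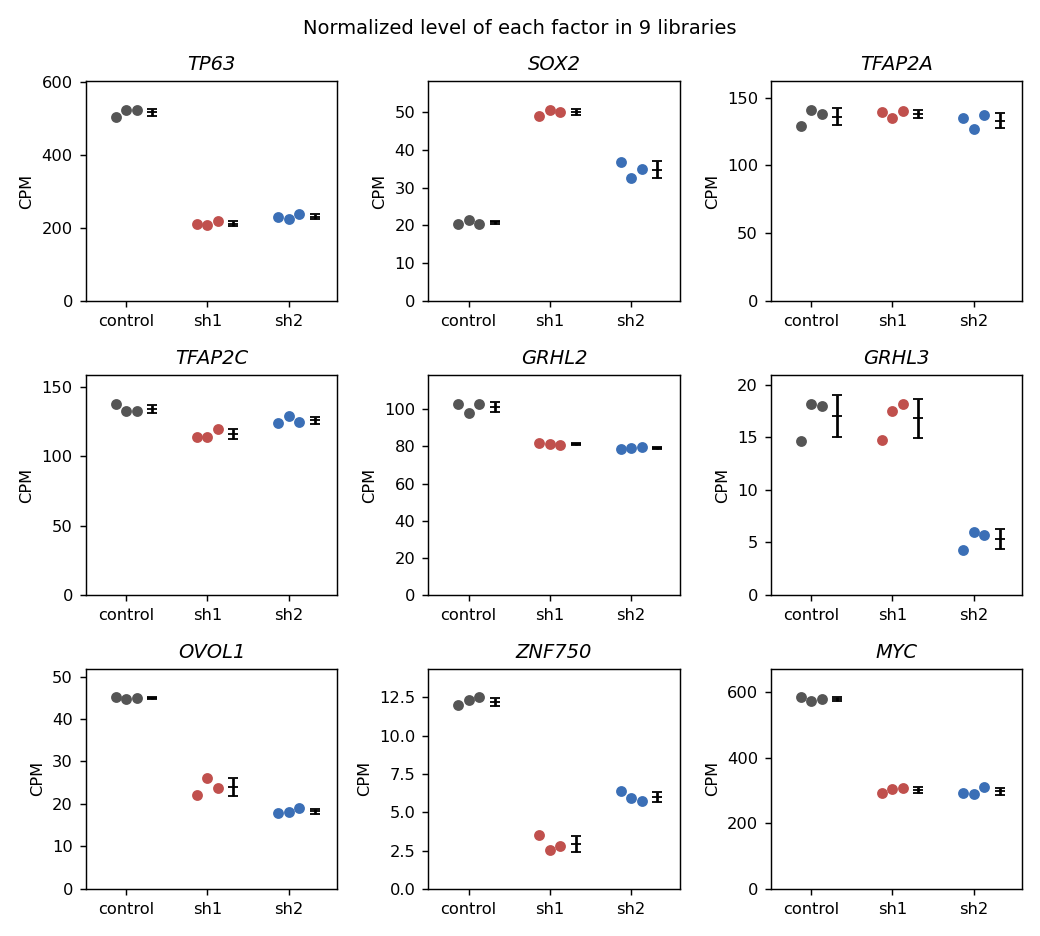
Level of each of the 9 factors in CPM (read counts normalized for library size; y axes from 0) in the 3 libraries of control (grey), sh1 (red) and sh2 (blue); bars give the mean and SD. TP63, TFAP2C, GRHL2, OVOL1, ZNF750 and MYC lie lower in all 6 hairpin libraries than in any control library, TFAP2C and GRHL2 by small margins. SOX2 lies higher, and GRHL3 is low with sh2 alone. The share of all genes whose libraries separate in this way was not counted, so the separation is a description and no test.

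Promoter sequences are given for TP63, SOX2 and GRHL3, the factors with a RefSeq entry that moved in opposite directions or with 1 hairpin alone. They are the 250 bases before the transcription start, 5′ to 3′ on the gene's strand, from RefSeq on GRCh38.p14, which is not the submitters' build; 4 of the 9 factors matched that table, the other being TFAP2A. Capitals mark matches to the motifs searched, and GRHL3 has 2 listed starts.
TP63 chr3:189631139-189631388 (+): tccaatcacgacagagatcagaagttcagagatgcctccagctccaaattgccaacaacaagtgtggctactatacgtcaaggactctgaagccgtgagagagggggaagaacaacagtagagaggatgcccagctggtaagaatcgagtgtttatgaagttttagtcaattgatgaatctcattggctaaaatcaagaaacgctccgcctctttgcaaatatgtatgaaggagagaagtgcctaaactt
SOX2 chr3:181711675-181711924 (+): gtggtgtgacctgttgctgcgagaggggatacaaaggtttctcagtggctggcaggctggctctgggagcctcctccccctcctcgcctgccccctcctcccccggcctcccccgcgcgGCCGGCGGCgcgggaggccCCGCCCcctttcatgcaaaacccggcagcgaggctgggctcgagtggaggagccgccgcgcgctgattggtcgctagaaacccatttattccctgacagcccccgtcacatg
GRHL3 chr1:24319107-24319356 (+): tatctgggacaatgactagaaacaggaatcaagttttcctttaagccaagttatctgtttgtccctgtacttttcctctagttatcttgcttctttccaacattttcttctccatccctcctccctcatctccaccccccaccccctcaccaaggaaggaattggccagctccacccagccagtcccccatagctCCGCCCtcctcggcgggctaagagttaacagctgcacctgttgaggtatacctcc
GRHL3 chr1:24322790-24323039 (+): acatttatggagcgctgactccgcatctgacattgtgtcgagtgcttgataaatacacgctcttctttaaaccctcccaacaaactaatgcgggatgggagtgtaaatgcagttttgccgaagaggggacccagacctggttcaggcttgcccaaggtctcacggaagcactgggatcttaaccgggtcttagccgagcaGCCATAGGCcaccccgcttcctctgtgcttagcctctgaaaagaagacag
The motifs, searched on both strands, were the E-box of MYC and MAX (CACGTG), an AP-2 motif (GCCNNNGGC), a grainyhead motif (AACCGGTT), a SOX motif (CATTGTT) and the GC box (GGGCGG). The TP63 window held none of them, and its GC content was 44%. The SOX2 window had a GC content of 68.8%, with an AP-2 match that begins 131 bases before the start and a GC box 112 bases before it, and the matches do not overlap. Of the GRHL3 windows, the upstream one held a GC box 55 bases before its start and the downstream one an AP-2 match 50 bases before its start. Among 35116 promoter windows of the same length, 6.34% held the E-box, 19.8% the AP-2 motif, 0.117% the grainyhead motif, 2.87% the SOX motif and 42.6% the GC box. A match describes the letters in a window and not a bound site. The TP63 window belongs to the upstream start: of 12 protein-coding TP63 transcripts in GENCODE v29, 5 start within 1000 bases of it and 7 start 158 kb downstream, where the forms without the N-terminal activation domain begin.

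TP63 (Entrez 8626), the regulator of basal squamous identity, fell with both hairpins to less than was seen in any control library. Its level in CPM, the counts after normalization for library size, was 506, 525 and 523 in control libraries 1 to 3, 211, 208 and 221 with sh1, and 231, 226 and 240 with sh2. All 6 hairpin libraries lay below the 3 control libraries, and the sh1 libraries lay below the sh2 libraries without overlap. The means were 518 ± 10.4 CPM in the control, 213 ± 6.89 CPM with sh1 and 232 ± 6.82 CPM with sh2 (SD, n = 3 libraries each). The fall was 2.43-fold with sh1 (log2 fold change -1.28 ± 0.030, SE) and 2.23-fold with sh2 (-1.16 ± 0.030), with adjusted p = 3.47e-25 and 4.19e-24 in edgeR's quasi-likelihood test after Benjamini-Hochberg adjustment. Of all genes, 2.97% fell at least as far with sh1 and 3.24% with sh2. Between the hairpins TP63 was lower with sh1 by a small margin (log2 difference -0.12 ± 0.032, adjusted p = 0.00124 by the same test).

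SOX2 (Entrez 6657), an HMG-box factor of foregut progenitors that shares targets with p63, was the 1 factor of the 9 to rise, and it rose with both hairpins. Its level was 20.5, 21.4 and 20.5 CPM in the control, 48.9, 50.5 and 50 CPM with sh1, and 36.8, 32.4 and 34.8 CPM with sh2. No library of 1 group overlapped another group, and the order was control, then sh2, then sh1. The means were 20.8 ± 0.491, 49.8 ± 0.776 and 34.7 ± 2.2 CPM (SD, n = 3 libraries each). The rise was 2.39-fold with sh1 (log2 fold change 1.26 ± 0.056, adjusted p = 2.36e-18) and 1.67-fold with sh2 (0.74 ± 0.060, adjusted p = 3.68e-12) in edgeR's quasi-likelihood test after Benjamini-Hochberg adjustment. Of all genes, 2.25% rose at least as far with sh1 and 6.61% with sh2. The level with sh1 was 1.44-fold that with sh2 (log2 difference 0.52 ± 0.050, adjusted p = 1.76e-10 by the same test). SOX2 lies inside the long noncoding gene SOX2-OT on the same strand, and no source used here says if reads were counted by strand. SOX2-OT was not found by symbol among the deposited genes and was not analysed here.

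TP63 fell and SOX2 rose, so their ratio necessarily shifted by more than either level. On the TPM scale, TP63 stood at 13.3, 13.2 and 13.7 times SOX2 in the 3 control libraries. That ratio was 2.29, 2.21 and 2.36 with sh1 and 3.43, 3.86 and 3.77 with sh2. The means were 13.4 ± 0.288, 2.29 ± 0.0751 and 3.69 ± 0.226 (SD, n = 3 libraries each), so TP63 remained the more abundant of the pair in every library. The ratio of MYC to SOX2 moved the same way, from 29.5 ± 0.91 in the control to 6.42 ± 0.106 with sh1 and 9.09 ± 0.583 with sh2. MYC to TP63 moved less, at 2.2 ± 0.0623, 2.81 ± 0.0699 and 2.47 ± 0.0381. These ratios are descriptions of the libraries and were not tested.

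The AP-2 factors, which open epithelial enhancers and bind beside p63, moved little with either hairpin. TFAP2A (Entrez 7020) was at 129, 141 and 138 CPM in the control, 139, 135 and 140 CPM with sh1, and 135, 127 and 137 CPM with sh2. Its 3 groups overlapped, and no comparison passed the test: the log2 fold change was 0.02 ± 0.038 with sh1 (adjusted p = 0.647) and -0.04 ± 0.037 with sh2 (adjusted p = 0.407) in edgeR's quasi-likelihood test after Benjamini-Hochberg adjustment. TFAP2A overlaps the antisense genes TFAP2A-AS1 and TFAP2A-AS2, whose reads cannot be told apart from it without strand. TFAP2C (Entrez 7022), its close paralog, was at 138, 133 and 133 CPM in the control, 114, 114 and 120 CPM with sh1, and 124, 129 and 125 CPM with sh2. All hairpin libraries lay below the control libraries and the sh1 libraries lay below those of sh2, but the margins were small. The log2 fold change of TFAP2C was -0.21 ± 0.035 with sh1 (adjusted p = 2.99e-06) and -0.09 ± 0.034 with sh2 (adjusted p = 0.0167) in edgeR's quasi-likelihood test after Benjamini-Hochberg adjustment. The sh2 call was lost without control library 1 (adjusted p = 0.0619) or without sh2 library 1 (adjusted p = 0.0682) in the same test. Of all genes, 31.7% fell at least as far as TFAP2C with sh1 and 41.1% with sh2. On the TPM scale the ratio of TFAP2C to TFAP2A was 1.16 ± 0.0812 in the control, 1.02 ± 0.0258 with sh1 and 1.14 ± 0.0735 with sh2 (SD, n = 3 libraries each).

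The grainyhead factors split: GRHL2 fell by a similar small amount with both hairpins, and GRHL3 fell with sh2 alone. GRHL2 (Entrez 79977), which maintains junction genes and the epithelial state, was at 103, 97.8 and 103 CPM in the control, 82, 81.3 and 80.8 CPM with sh1, and 78.8, 79.2 and 79.8 CPM with sh2. Control and hairpin libraries did not overlap. Its log2 fold change was -0.31 ± 0.036 with sh1 and -0.35 ± 0.036 with sh2 (adjusted p = 6.71e-09 and 5.87e-10 in edgeR's quasi-likelihood test after Benjamini-Hochberg adjustment), and 25.5% and 23.3% of all genes fell at least as far. The sh1 libraries also lay above those of sh2 without overlap, yet the difference between the hairpins was 0.04 ± 0.037 (adjusted p = 0.375 by the same test). Separated libraries thus do not by themselves make a called difference.

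GRHL3 (Entrez 57822), the grainyhead factor of barrier formation and late differentiation, was at 14.6, 18.2 and 18 CPM in the control and 14.7, 17.5 and 18.2 CPM with sh1. With sh2 it was at 4.26, 6.04 and 5.69 CPM. The control and sh1 libraries covered nearly the same range, and every sh2 library lay below all of them. The means were 17 ± 2.01, 16.8 ± 1.87 and 5.33 ± 0.943 CPM (SD, n = 3 libraries each), from 772, 742 and 254 counts summed over the libraries of a group. The fall with sh2 was 3.18-fold (log2 fold change -1.67 ± 0.119, adjusted p = 1.99e-13), while the log2 fold change with sh1 was -0.01 ± 0.095 (adjusted p = 0.9) in edgeR's quasi-likelihood test after Benjamini-Hochberg adjustment. The difference between the hairpins was itself past the threshold, at 3.15-fold higher with sh1 (log2 difference 1.65 ± 0.120, adjusted p = 2.8e-13 by the same test), and 1% of all genes differed at least as far in that direction. On the TPM scale GRHL2 stood at 3.24 ± 0.491 times GRHL3 in the control, 2.62 ± 0.342 times with sh1 and 8.07 ± 1.57 times with sh2. GRHL3 overlaps STPG1 on the opposite strand, which went from 13.5 ± 0.965 CPM in the control to 11.3 ± 0.581 (sh1) and 8.01 ± 0.518 (sh2). STPG1 fell with both hairpins (log2 fold change -0.25 ± 0.089 and -0.75 ± 0.094, adjusted p = 0.0128 and 3.02e-08 in the same test), and its part in the GRHL3 count was not tested.

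OVOL1 and ZNF750, zinc finger factors that work on the way from the basal layer into differentiation, fell with both hairpins, each more with a different one. OVOL1 (Entrez 5017), a repressor that limits mesenchymal genes and MYC in epithelia, was at 45.1, 44.7 and 45 CPM in the control, 22, 26.2 and 23.8 CPM with sh1, and 17.9, 18.1 and 19 CPM with sh2. The groups did not overlap, and sh2 was the lowest. The fall was 1.87-fold with sh1 (log2 fold change -0.91 ± 0.058, adjusted p = 1.31e-14) and 2.45-fold with sh2 (-1.29 ± 0.060, adjusted p = 7.11e-18) in edgeR's quasi-likelihood test after Benjamini-Hochberg adjustment. The level with sh1 exceeded that with sh2 by 0.39 ± 0.068 on the log2 scale (adjusted p = 1.01e-05 by the same test). Of all genes, 6.49% fell at least as far with sh1 and 2.56% with sh2. OVOL1 overlaps the antisense gene OVOL1-AS1, which was not found by symbol among the deposited genes and was not analysed here.

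ZNF750 (Entrez 79755), a target of p63 that induces terminal differentiation genes and is recurrently mutated in this cancer type, had the largest fall of the 9 factors with sh1. Its level was 12, 12.3 and 12.5 CPM in the control, 3.53, 2.51 and 2.78 CPM with sh1, and 6.39, 5.91 and 5.75 CPM with sh2. The 3 groups did not overlap, and the order was the reverse of that for OVOL1, with sh1 the lowest. The group sums were 558, 130 and 287 counts, the fewest of the 9 factors in the control and with sh1; with sh2 GRHL3 had fewer, at 254. The fall was 4.16-fold with sh1 (log2 fold change -2.06 ± 0.126, adjusted p = 5.12e-15) and 2.03-fold with sh2 (-1.02 ± 0.107, adjusted p = 8.36e-10) in edgeR's quasi-likelihood test after Benjamini-Hochberg adjustment. The difference between the hairpins was -1.03 ± 0.144 (adjusted p = 2.36e-07 by the same test). Of all genes, 0.67% fell at least as far with sh1 and 4.4% with sh2. ZNF750 lies within TBCD on the opposite strand; TBCD, a tubulin chaperone, was at 51.9 ± 1.56, 65.3 ± 2.41 and 44.6 ± 1.53 CPM, higher with sh1 (log2 fold change 0.33 ± 0.044) and lower with sh2 (-0.22 ± 0.047).

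MYC (Entrez 4609) fell by nearly the same amount with both hairpins. It was the most abundant of the 9 factors, at 584, 574 and 578 CPM in the control, 292, 304 and 308 CPM with sh1, and 292, 288 and 310 CPM with sh2. All hairpin libraries lay below all control libraries, and the sh1 and sh2 libraries overlapped. The means were 579 ± 4.91, 301 ± 8.24 and 297 ± 11.8 CPM (SD, n = 3 libraries each), from 26366, 13333 and 14142 summed counts. The fall was 1.92-fold with sh1 (log2 fold change -0.94 ± 0.030, adjusted p = 3.39e-22) and 1.95-fold with sh2 (-0.96 ± 0.029, adjusted p = 2.5e-22) in edgeR's quasi-likelihood test after Benjamini-Hochberg adjustment. The difference between the hairpins was 0.02 ± 0.031 (adjusted p = 0.513 by the same test). Of all genes, 6% fell at least as far with sh1 and 5.13% with sh2.

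**Figure D2:**
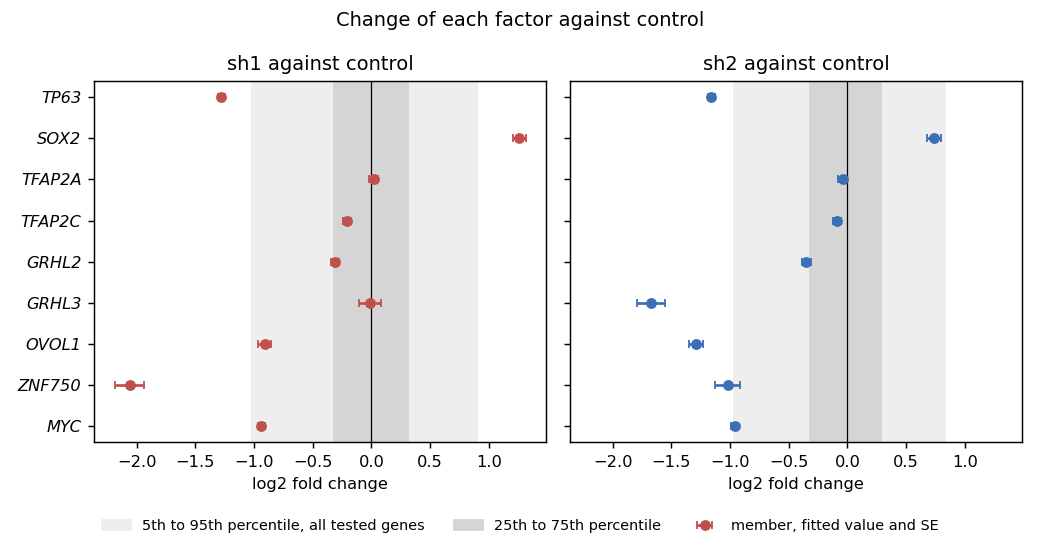
Fitted log2 fold change and SE of each factor with sh1 (red) and sh2 (blue) against the shared control, over grey bands for the middle of all 13580 tested genes (5th to 95th and 25th to 75th percentiles). TP63, ZNF750 and SOX2 with sh1, and TP63, GRHL3, OVOL1 and ZNF750 with sh2, lie outside the wider band, which spans -1.02 to 0.90 with sh1 and -0.97 to 0.83 with sh2.

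Compared directly, the hairpins differed in 6 of the 9 factors. GRHL3, SOX2 and OVOL1 were higher with sh1 than with sh2, against 34.2% of all genes called in that direction. ZNF750, TP63 and TFAP2C were lower with sh1, against 35.6% of all genes. Such differences were thus about as frequent among the 9 factors as among all genes. GRHL3 and ZNF750 differed by more than 2-fold. TFAP2A, GRHL2 and MYC did not pass the test of this difference in edgeR.

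Ordered by level per length in the control, the factors ran from MYC at 607 ± 4.8 TPM through TP63 at 275 ± 8.58, TFAP2C at 116 ± 1.21, TFAP2A at 99.6 ± 5.71, GRHL2 at 47.7 ± 1.27, OVOL1 at 36.8 ± 0.402, SOX2 at 20.6 ± 0.593 and GRHL3 at 14.9 ± 2.01 to ZNF750 at 9.46 ± 0.301 TPM (SD, n = 3 libraries each). No neighbours in that order overlapped in the control. MYC ranked 221 of 16290 genes above 0 in the control, and ZNF750 ranked 9679. The ranks shifted with the hairpins. MYC moved to rank 501 with sh1 and 539 with sh2, and TP63 from rank 575 to 1685 and 1553. SOX2 climbed from rank 7431 to 3923 with sh1 and 5352 with sh2. With sh1, SOX2 at 47.6 ± 0.295 TPM lay above GRHL2 (37.2 ± 0.594) and OVOL1 (19 ± 1.49), both of which exceeded it in the control. With sh2, SOX2 at 30.5 to 35 TPM lay below GRHL2 at 35.6 to 35.9 TPM and above OVOL1 at 14.1 to 14.8 TPM. TFAP2C and TFAP2A overlapped with sh1 (94 to 99.8 against 92.2 to 96.6 TPM), and GRHL3 and ZNF750 overlapped with sh2 (3.65 to 5.26 against 4.22 to 4.74 TPM).

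The deposited tables also give a mean transcript length per gene, which moves when the mix of transcripts assigned to a gene moves. Of the 9 factors, 4 have several listed transcripts: TP63 with 13, GRHL3 with 4, TFAP2A with 3 and GRHL2 with 2. The TP63 length was 4659, 4667 and 4650 bases in the control, 4715, 4679 and 4698 bases with sh1, and 4578, 4524 and 4579 bases with sh2. It was thus longer in every sh1 library and shorter in every sh2 library than in any control library. TFAP2A was longer with both hairpins, at 3401, 3399 and 3386 bases in the control, 3502, 3482 and 3511 bases with sh1, and 3443, 3477 and 3487 bases with sh2. GRHL2 and GRHL3 overlapped between groups. Among 8104 genes with several transcripts, the lengths of 17.6% did not overlap between sh1 and control, and those of 17.6% did not overlap between sh2 and control, so that such a separation is common here. The length is an estimate by the authors' software, and which transcripts moved was not analysed here.

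**Figure D3:**
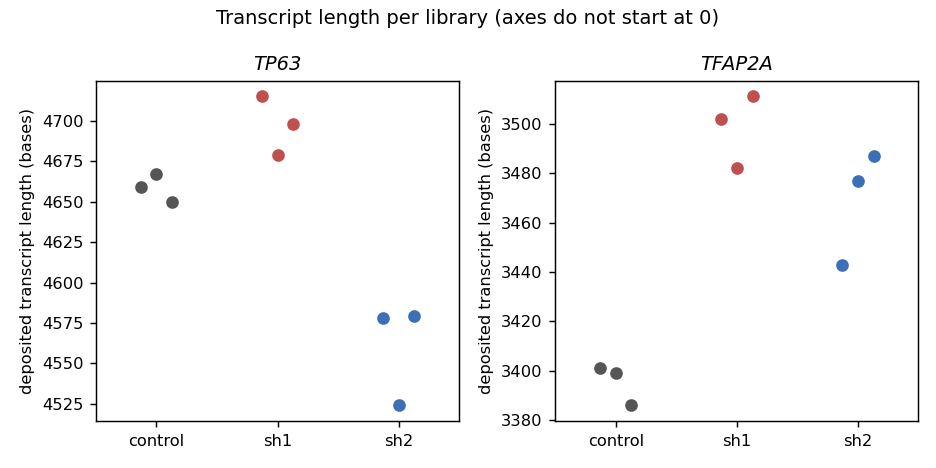
Deposited mean transcript length in bases of TP63 and TFAP2A in each library of control, sh1 and sh2; the axes do not start at 0. TP63 sits at 4650 to 4667 bases in the control, above that range in the sh1 libraries and below it in the sh2 libraries, and TFAP2A sits above its control range of 3386 to 3401 bases with both hairpins.

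Genes around the factors were read from lists taken by role, chosen with earlier results of these data known. The shares of these lists are therefore descriptions and no independent test. Of 36 other squamous and epithelial transcription factors, 33 were tested, of which 9 rose and 17 fell with sh1 (27.3% and 51.5%) and 5 rose and 19 fell with sh2 (15.2% and 57.6%). Over all tested genes, 34.7% rose and 34.6% fell with sh1 and 34.2% rose and 34.3% fell with sh2. The median log2 fold change over the 33 factors was -0.34 with sh1 and -0.12 with sh2. PRDM1, which acts in terminal keratinocyte differentiation, fell from 27.6 ± 0.731 CPM in the control to 5.9 ± 0.417 (sh1) and 8.38 ± 1.53 (sh2) (SD, n = 3 libraries each). SNAI2, a repressor kept in basal progenitors that also counts among the mesenchymal factors, fell from 24.4 ± 0.637 to 5.31 ± 0.796 and 8.2 ± 0.71 CPM. SOX7 fell too (log2 fold change -1.30 ± 0.051 and -1.66 ± 0.053). MAF, a bZIP factor of keratinocyte differentiation, rose from a very low 0.373 ± 0.0985 CPM to 1.04 ± 0.157 and 1.82 ± 0.252 CPM, and SOX15 (0.39 ± 0.049 and 0.76 ± 0.047) and YBX1 (0.49 ± 0.026 and 0.29 ± 0.026) rose as well. CEBPA and EHF rose with sh1 and fell with sh2 (CEBPA 0.44 ± 0.062 and -0.37 ± 0.068, EHF 0.19 ± 0.029 and -0.12 ± 0.030).

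Basal genes linked to TP63, 31 of them tested, were called 9 higher and 17 lower with sh1 (29% and 54.8%, beside 34.7% and 34.6% of all genes) and 7 higher and 20 lower with sh2 (22.6% and 64.5%, beside 34.2% and 34.3% of all genes). The median was -0.27 with sh1 and -0.44 with sh2. The basal keratin KRT14 fell from 34 ± 0.508 CPM to 8.14 ± 0.32 (sh1) and 17.1 ± 0.99 (sh2). FGFBP1, a carrier that releases stored fibroblast growth factors, fell from 64.5 ± 3.09 to 8.68 ± 0.836 and 34.8 ± 2.25 CPM, and the adhesion protein TNS4 from 444 ± 7.03 to 188 ± 3.76 and 217 ± 13.1 CPM. Not all genes of the list fell. The hemidesmosome collagen COL17A1 rose (log2 fold change 0.74 ± 0.037 and 0.59 ± 0.037), as did the calcium-binding S100A2 (0.87 ± 0.045 and 0.52 ± 0.046) and the integrin ITGA3 (0.14 ± 0.026 and 0.24 ± 0.026). Dependence of these genes on TP63 was not tested. GPC3 and BMP7 rose with sh1 and fell with sh2 (GPC3 1.09 ± 0.168 and -0.48 ± 0.205, BMP7 0.24 ± 0.046 and -0.54 ± 0.050).

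Of 34 squamous differentiation genes, 25 were tested. With sh1, 11 rose and 9 fell (44% and 36%, median 0.14), where all genes gave 34.7% and 34.6%. With sh2, 15 rose and 5 fell (60% and 20%, median 0.43), where all genes gave 34.2% and 34.3%. The cornified envelope protein IVL rose from 1.78 ± 0.268 CPM to 9.13 ± 0.681 and 28 ± 1.62, and SCEL from 1.47 ± 0.501 to 4.25 ± 0.345 and 11.3 ± 1.17 CPM. The protease TMPRSS11E rose from 5.13 ± 0.629 to 23.6 ± 0.898 and 14.6 ± 0.735 CPM. Others fell with both: CSTA, a protease inhibitor, from 188 ± 7.94 to 136 ± 7.55 and 49.1 ± 1.6 CPM, the esophageal keratin KRT4 from 21 ± 0.635 to 9.61 ± 0.521 and 14.8 ± 0.47 CPM, and CNFN from 2.94 ± 0.411 to 1.56 ± 0.116 and 1.59 ± 0.189 CPM. TGM1, which crosslinks the envelope, and the plakin PPL fell with sh1 and rose with sh2 (TGM1 -0.62 ± 0.079 and 0.33 ± 0.068, PPL -0.39 ± 0.030 and 0.09 ± 0.029).

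All 25 epithelial genes linked to GRHL2 were tested. With sh1, 13 rose and 6 fell (52% and 24%, median 0.23), against 34.7% and 34.6% of all genes. With sh2, 12 rose and 7 fell (48% and 28%, median 0.08), against 34.2% and 34.3% of all genes. The adhesion molecule EPCAM rose from 334 ± 7.16 CPM to 662 ± 10.5 (sh1) and 475 ± 11.2 (sh2), and the receptor ERBB3 from 113 ± 1.83 to 171 ± 3.82 and 178 ± 5.97 CPM. The junction protein CGN rose as well (log2 fold change 0.63 ± 0.045 and 0.84 ± 0.043). CDS1 fell from 78.5 ± 2.51 to 18.1 ± 1.06 and 26.5 ± 2.05 CPM, the splicing factor ESRP2 from 131 ± 1.22 to 87.3 ± 3.07 and 82.2 ± 1.77 CPM, and the junction protein LSR by less (-0.13 ± 0.031 and -0.16 ± 0.031). ESRP1 and MAL2 fell with sh1 and rose with sh2 (ESRP1 -0.21 ± 0.036 and 0.33 ± 0.034, MAL2 -0.09 ± 0.023 and 0.28 ± 0.023).

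Of 20 mesenchymal genes and factors, the kind that GRHL2 and OVOL1 are known to hold down, 15 were tested, and VIM, ZEB1 and TWIST1 were among those too low for the test. With sh1, 9 rose and 3 fell (60% and 20%, median 0.41), beside 34.7% and 34.6% of all genes. With sh2, 5 rose and 10 fell (33.3% and 66.7%, median -0.59), beside 34.2% and 34.3% of all genes, so that the share higher was near that of all genes. The difference between the hairpins over this list was not tested. The fibronectin receptor subunit ITGA5 rose with both, from 36.8 ± 1.12 CPM to 113 ± 2.07 and 109 ± 0.72, and so did TGFBI (log2 fold change 0.76 ± 0.025 and 0.60 ± 0.025) and the matrix crosslinking enzyme LOX (0.69 ± 0.057 and 0.82 ± 0.055). The receptor AXL fell with both (-0.39 ± 0.050 and -0.74 ± 0.052), as did TWIST2 (-0.52 ± 0.096 and -0.29 ± 0.091). COL5A1 and CDH2 divided the hairpins: COL5A1 was at 45.1 ± 0.333 CPM in the control, 77.8 ± 1.5 with sh1 and 17 ± 0.262 with sh2, and CDH2 at 2.64 ± 0.386, 4.7 ± 0.165 and 1.36 ± 0.097 CPM. The summed fibroblast markers given above moved over the same libraries, and their part in this list was not tested.

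**Figure D4:**
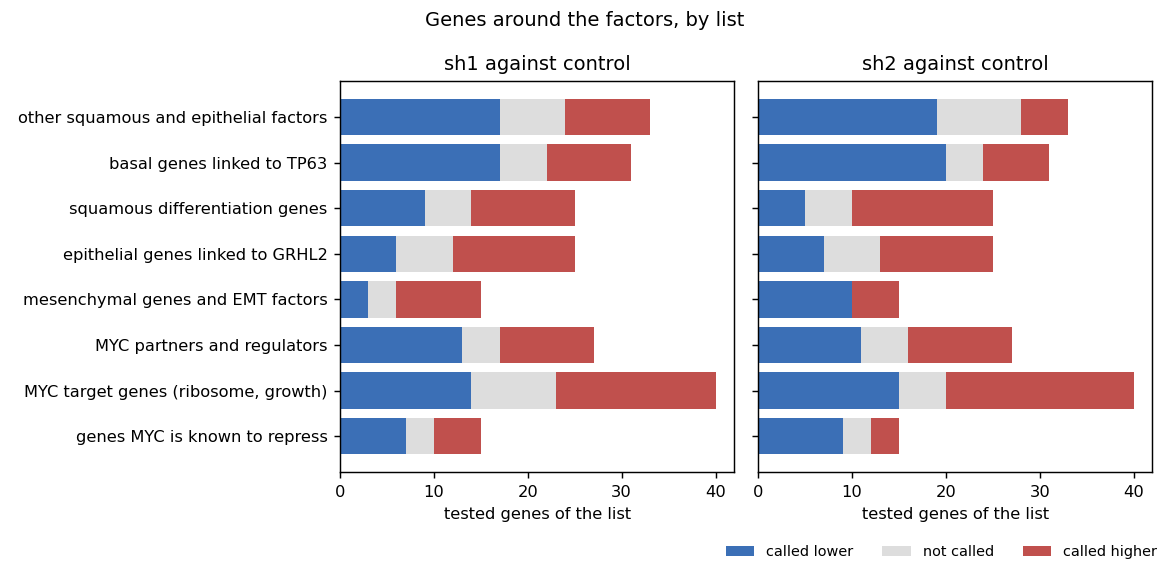
Number of tested genes of each list called lower (blue), not called (grey) and called higher (red) with sh1 and sh2 against control. The lists were chosen with earlier results of these data known. Of the basal genes linked to TP63, 17 of 31 are lower with sh1 and 20 with sh2, and of the squamous differentiation genes, 15 of 25 are higher with sh2; of all tested genes, 34.2% to 34.7% were called in each direction.

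Of 28 MYC partners and regulators, 27 were tested. Of these, 10 rose and 13 fell with sh1 (37% and 48.1%, median -0.01), and 11 rose and 11 fell with sh2 (40.7% and 40.7%, median 0.03). Over all genes the shares were 34.7% and 34.6% with sh1 and 34.2% and 34.3% with sh2, so the partners rose about as often as genes in general with sh1. MAX, the obligate partner of MYC and named here for that role after its value was seen, fell from 141 ± 5.76 CPM to 114 ± 4.92 and 118 ± 1.78. MXD1, which competes with MYC for MAX, rose from 32.4 ± 0.619 to 55.1 ± 2.94 and 63.4 ± 1.08 CPM, while the related MXI1 fell from 52.8 ± 2.25 to 34.3 ± 3.72 and 38.7 ± 0.559 CPM. The family member MYCL, at a low 2.28 ± 0.222 CPM in the control, rose to 4.86 ± 0.785 and 4.48 ± 0.453 CPM, and BIN1, which binds MYC and restrains it, rose too (log2 fold change 0.65 ± 0.098 and 0.68 ± 0.096). The kinase PIM1 fell from 107 ± 1.48 to 50.7 ± 1.19 and 59.4 ± 1.57 CPM, and MLXIPL from 62.1 ± 1.45 to 27.9 ± 0.882 and 33.5 ± 3.74 CPM. MXD4 rose with sh1 and fell with sh2 (1.13 ± 0.109 and -0.97 ± 0.145), and CTNNB1 did the opposite (-0.31 ± 0.030 and 0.23 ± 0.029).

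Of 40 genes of ribosome production and growth that MYC is known to induce, all tested, 17 rose and 14 fell with sh1 (42.5% and 35%, median 0.04), and 20 rose and 15 fell with sh2 (50% and 37.5%, median 0.08). The shares that fell were near those of all genes, 34.6% with sh1 and 34.3% with sh2, and 34.7% and 34.2% of all genes rose. The nucleolar helicase DDX21 fell from 406 ± 4.85 CPM to 227 ± 3.11 and 250 ± 4.22, and the RNA polymerase I subunit POLR1B from 86.2 ± 0.991 to 52.9 ± 0.883 and 52.9 ± 1.39 CPM. RRP12 fell as well (log2 fold change -0.38 ± 0.049 and -0.79 ± 0.051). Against these, the polyamine enzyme ODC1 rose from 76.4 ± 0.772 to 188 ± 3.26 and 115 ± 1.34 CPM, the mitochondrial chaperone HSPD1 from 765 ± 10.3 to 1269 ± 31 and 1161 ± 22.4 CPM, and the replication helicase subunit MCM5 from 95.4 ± 3.49 to 160 ± 2.2 and 167 ± 2.04 CPM. The transferrin receptor TFRC rose with sh1 and fell with sh2 (0.66 ± 0.027 and -0.38 ± 0.028), and PES1 did the opposite (-0.24 ± 0.040 and 0.30 ± 0.038).

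Of 16 genes that MYC is known to repress, 15 were tested. Of these, 5 rose and 7 fell with sh1 (33.3% and 46.7%, median -0.09), and 3 rose and 9 fell with sh2 (20% and 60%, median -0.13). The share that rose with sh1 was near the 34.7% of all genes, of which 34.6% fell with sh1 and 34.2% rose and 34.3% fell with sh2. The cell cycle inhibitor CDKN1A rose slightly, from 117 ± 0.902 CPM to 136 ± 0.519 and 129 ± 1.75. The stress genes DDIT3 and GADD45B fell, DDIT3 from 40.4 ± 2.12 to 9.68 ± 0.82 and 10.1 ± 1.31 CPM and GADD45B from 44.7 ± 1.42 to 18.3 ± 1.38 and 14.3 ± 1.01 CPM. The matrix protein THBS1 fell from 135 ± 3.49 to 68 ± 3.52 and 68.1 ± 1.9 CPM. BTG2 and CCNG2, which restrain proliferation, rose with sh1 and fell with sh2 (BTG2 from 23.5 ± 0.421 to 40.8 ± 1.06 and 11.8 ± 0.7 CPM, CCNG2 from 17.2 ± 1.53 to 29.9 ± 0.788 and 13.4 ± 0.621 CPM).

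The genes whose pattern over the 9 libraries lay nearest to that of 3 factors were found by Euclidean distance between gene-centred log2 CPM, among 11043 genes. Nearest to TP63 were the hyaluronan synthase HAS3 (distance 0.094), the laminin receptor BCAM (0.107) and the lysosomal protein TMEM192 (0.144). HAS3 went from 118 ± 0.957 CPM in the control to 50.1 ± 1.55 (sh1) and 52.4 ± 0.982 (sh2). BCAM went from 132 ± 3.56 to 51.9 ± 1.13 and 57 ± 1.08 CPM. Nearest to SOX2 were SLC38A7 (0.159), an amino acid transporter, PLBD2 (0.16) and POGLUT3 (0.162), and SLC38A7 went from 32.6 ± 1.24 to 73.3 ± 0.695 and 53.1 ± 1.87 CPM. Nearest to MYC were CAMSAP2 (0.15), a microtubule protein, the ubiquitin ligase NEDD4L (0.152) and the receptor phosphatase PTPRU (0.165), and NEDD4L went from 69.4 ± 0.848 to 36.2 ± 0.531 and 36.1 ± 1.59 CPM. These genes were picked for their likeness, which is therefore no test.

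Of 15 neighbouring, overlapping or antisense genes listed for the 9 factors, 5 were found by symbol among the deposited genes, and all 5 were tested. The others, SOX2-OT, OVOL1-AS1, TFAP2A-AS1 and TFAP2A-AS2 among them, had no entry under their symbol. TPRG1 and P3H2 neighbour TP63, and they did not move alike: TPRG1 fell from 17.4 ± 1.24 CPM to 9.7 ± 0.397 (sh1) and 6.5 ± 0.417 (sh2), while P3H2 rose from 3.2 ± 0.131 to 5.54 ± 0.398 CPM with sh1 and fell to 2.29 ± 0.0686 CPM with sh2. NCALD, near GRHL2, had a log2 fold change of 0.51 ± 0.339 with sh1 (adjusted p = 0.183) and rose with sh2 (0.83 ± 0.318, adjusted p = 0.0221) in edgeR's quasi-likelihood test after Benjamini-Hochberg adjustment. TBCD and STPG1 are given beside ZNF750 and GRHL3.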

How the data were processed

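RNA of KYSE510 cells was sequenced on BGISEQ-500 in 3 samples with 9 numbered gene tables. RSEM 1.2.12, HISAT2 2.0.4, DESeq2 1.4.5, Bowtie2 2.2.5 and the hg19 build appear without roles in the submitters' processing notes. Per the file headers, the authors deposited an expected count, a TPM value and a transcript length for each of 19266 Entrez identifiers; 19206 took a symbol from a RefSeq table (GRCh38.p14). Of the deposited expected counts, 70% to 70.4% per library were whole within 1e-06. No source used here says if reads were counted by strand.

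Counts were rounded and fitted in edgeR 4.0.16 (R 4.3.3): filterByExpr (13580 genes), TMM scaling, all 9 libraries in 1 quasi-likelihood fit on group alone, and Benjamini-Hochberg adjustment over all tested genes. Fold changes come from that fit, and SE is the absolute log2 fold change over the square root of F. The biological coefficient of variation was 2.33%. Tables of 1 sample differed by more than counting error (chi-square per degree of freedom 1.49 to 2.03). The 9 factors and all lists were chosen with earlier results of these data known. Within each list the text names up to 3 genes called higher and 3 called lower with both hairpins and up to 2 called in opposite directions, by the larger smaller change among genes averaging at least 1 CPM; all tested neighbours; and the 3 nearest patterns to TP63, SOX2 and MYC among genes averaging at least 5 CPM. Alternatives were DESeq2 1.42.0, other scalings, no filter, limma 3.58.1 on log2(TPM + 1) or log2(TPM + 0.1), fits of 2 groups, a table-number block and leaving out each library. Overlaps of genes were read from GENCODE v29.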

Additional observations from a re-analysis of the deposited data

How the results depend on the processing

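Each of 27 values (9 factors in 3 comparisons) was recomputed under 18 alternatives, 9 of which leave out 1 library. Of 486 recomputed values, 474 kept their direction and their side of the threshold. TFAP2A with sh1, which was not called, turned to -0.07 in limma on log2(TPM + 1), on log2(TPM + 0.1) and without a filter, and ranged from -0.02 to 0.05 when single libraries were left out. GRHL3 with sh1, also not called, ranged from -0.11 to 0.07 over left-out libraries. The cause was not tested. TFAP2A with sh2 was called lower in the 3 limma fits on TPM (log2 fold change -0.13, adjusted p from 0.0194 to 0.0366), and the cause was not tested. TFAP2C with sh2 had -0.08 and was lost in the 2 fits named beside it. The count of factors called lower with sh2 was thus 6 to 8, and the other counts of called factors were the same in every alternative run. ZNF750 with sh1 ranged from -2.21 to -1.95 over left-out libraries and from -2.07 to -1.72 over the other alternatives, and its difference between the hairpins was smallest at -0.77; the values nearest 0 came from limma on TPM with a pseudocount of 1.

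The fit with the table number as replicate block changed no call among the factors: the counts of called factors stayed at 1 higher and 6 lower with sh1 and 1 higher and 7 lower with sh2. Same-numbered tables did not deviate together (correlation of deviations -0.0767 to 0.0426 in 9 pairs, -0.0855 to 0.0673 in 18 other pairs). Because tables of 1 sample differed so little, these values cannot decide whether the numbers pair the samples. With 1 sample per group, no alternative measures the spread between cultures, and depth limits ZNF750 and GRHL3 most.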
